A study of Homo sapiens with 9 samples.

Results

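*ERG* and 9 further genes of the ETS family (*ETS2*, *ETV6*, *ELF1*, *ELF2*, *ELF3*, *GABPA*, *EHF*, *ELK1* and *ELK3*) were followed in VCaP cells with and without siRNA against the long non-coding RNA *IGF1R-AS1*. VCaP carries the *TMPRSS2-ERG* fusion. The 10 genes were chosen by name from the 19918 genes counted in each library, with earlier results of these data known. The shares of them called are therefore a description. All 10 passed the filter on low counts that left 12810 genes to test. VCaP is an established prostate cancer cell line, so every library is from the same line. Each reverse transfection used 100 pmol of siRNA, and the total RNA sequenced was taken 72 h later. The 3 groups were cells given a control siRNA, cells given si025 and cells given si033. Both si025 and si033 were directed at exon 1 of *IGF1R-AS1*, and each group held 3 libraries. The level of *IGF1R-AS1* itself was not analysed here, and how far it was knocked down is not part of these results. The study describes its knockdown libraries as biological replicates, without saying whether those of a group came from separate cultures, so *p* values measure only the spread between these libraries, which may be technical.

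ETS factors are transcription factors that share a winged helix-turn-helix DNA-binding domain, the ETS domain, and bind short DNA words built around GGAA. They differ in the partners they bind and in whether they activate or repress. *ERG* is normally active in endothelial and blood-forming cells. In many prostate cancers a rearrangement on chromosome 21 places it behind the promoter of *TMPRSS2*, an androgen-regulated gene of luminal prostate cells, and *ERG* is then driven by androgen. *EHF*, *ELF3* and *SPDEF* are the ETS factors typical of epithelium, while *GABPA*, *ELF1*, *ELF2* and *ELK1* are present in most cell types.

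Values are CPM, the read pairs of a gene per 1000000 pairs of the TMM-scaled library size, listed by replicate number. Fold changes are on the log2 scale, with the standard error (SE) and the *p* value from edgeR's quasi-likelihood test, adjusted by the Benjamini-Hochberg method over the 12810 genes. A gene is referred to as called at an adjusted *p* under 0.05, and as higher or lower in the first-named group. Libraries totalled between 11649811 and 28492259 counts, and at this depth the biological coefficient of variation was 4.13%. Most genes were called. With si025, 61.7% of tested genes were called against control (32.9% higher and 28.8% lower), with si033 54.8% (26.9% and 27.8%), and between si025 and si033 60.9% (31.2% and 29.7%). With offsets for gene length and GC content, the share of called genes that were higher with si025 was 42.7% in place of 53.4%. The offsets shifted the log2 fold changes of the tested genes by a median of -0.08 with si025, -0.02 with si033 and -0.06 between the siRNAs. Values given with the offsets include this common shift. The comparisons of si025 and of si033 with control share the same control libraries, so the difference between the siRNAs was taken from their direct comparison.

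The RNA carried the markers of luminal prostate cells. *KLK2*, a secreted prostate protease, averaged 1938 CPM in control, 3502 CPM with si025 and 1621 CPM with si033. *FOXA1*, a transcription factor of prostate epithelium, averaged 732 CPM in control, 858 CPM with si025 and 587 CPM with si033. *HOXB13*, a homeobox gene of prostate epithelium, averaged 479.6 CPM in control, 693 CPM with si025 and 575 CPM with si033. *AMACR*, an enzyme of fatty acid oxidation that is high in prostate cancer, averaged 148 CPM in control, 80.5 CPM with si025 and 107 CPM with si033. The luminal markers thus moved in both directions, with *KLK2* and *FOXA1* highest with si025 and lowest with si033, *HOXB13* lowest in control and *AMACR* highest in control. The endothelial markers, which matter here because endothelium is a normal site of *ERG*, summed to at most 2.34 CPM in any library, and *CDH5* and *CLDN5* had no count in any of the 9. Their sum averaged 1.26 CPM in control, 1.86 CPM with si025 and 1.08 CPM with si033, and the control and si033 ranges overlapped. The only endothelial marker tested, *VWF*, was called higher with si025, 0.84, and 4 of 16 alternatives lost that call. Immune markers summed to at most 2.18 CPM, with *CD3E* at 0, and basal epithelial markers to at most 4.98 CPM, with *KRT5* at 0. The fibroblast list summed to between 16.7 and 18.9 CPM in control, 36.7 and 44.0 CPM with si025 and 8.90 and 11.5 CPM with si033. Most of this was *LUM*, the proteoglycan lumican (15.6, 37.1 and 8.39 CPM on average), while *COL1A2*, a defining collagen gene, had at most 1 count. *COL1A1*, another collagen gene of the list, was called higher with si025, 1.07, as *LUM* was, 1.26. With si033 *COL1A1* gave -0.20, which was not called. The fibroblast and endothelial sums, like *KLK2* and *FOXA1*, were on average highest with si025 and lowest with si033. So were *ERG*, *ELF3*, *ELK3* and *SPDEF* below, and the part of these markers in those results was not tested. In these bulk libraries, fewer cells of a type and less RNA per cell cannot be told apart.

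The DNA word that ETS factors favour was looked for in the promoters of the 10 genes, read from RefSeq (GRCh38.p14) as the 250 bases before and 50 bases after each start. The longer word searched was CCGGAAGT, with its reverse complement ACTTCCGG, and the shorter word was CGGAAG, with CTTCCG, which lies inside the longer word. Of 19 promoters of the 10 genes, 1 held each word, and in both cases it was that of *GABPA*. Over all 35116 RefSeq promoters, 4.14% held the longer word and 19.5% the shorter. The *GABPA* window is shown because its product is itself a factor that binds such words. It lies at chr21:25734895-25734922 on the plus strand, the strand of the gene, and the shorter word begins 66 bases before the start used in that table, which is not the gene start of the count files printed below. Capitals mark that word, read here as its reverse complement.
GABPA promoter: cctccgctctaCTTCCGgccctggctcc
A match of letters is a description and not a measured binding site.

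*ERG* (hg38 chromosome 21, 38367261 to 38662045, minus strand) was at 309.5, 300.5 and 323 CPM in the control libraries, 452, 452 and 453 CPM with si025 and 271, 276 and 297 CPM with si033. The 3 si025 libraries lay above every control library, and the 3 si033 libraries lay below every control library. Relative to control, *ERG* rose 1.45-fold with si025, a log2 fold change of 0.54 (SE 0.04, adjusted *p* = 2.83e-10), and fell with si033 by a smaller amount, -0.14 (SE 0.04, adjusted *p* = 0.0089). The si033 call was lost without si033 replicate 1 (-0.11, adjusted *p* = 0.0584) and without control replicate 3 (-0.11, adjusted *p* = 0.0818). Between the siRNAs the difference was 0.68 (SE 0.04, adjusted *p* = 4.40e-12). Counts summed by gene do not separate transcripts of the fusion from those of an unrearranged *ERG*.

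*TMPRSS2* (chromosome 21, 41464551 to 41508158, minus strand), whose promoter drives *ERG* in the fusion, had a smaller log2 fold change than *ERG* with si025. It was at 307, 307 and 311 CPM in the control libraries, 354, 348 and 348 CPM with si025 and 323, 297 and 324 CPM with si033. The log2 fold change was 0.18 (SE 0.04, adjusted *p* = 0.000704) with si025 and 0.03 (SE 0.04, adjusted *p* = 0.59) with si033, and 0.15 (SE 0.04, adjusted *p* = 0.00325) between them, and with offsets for gene length and GC content the si025 value was 0.080. The ratio of *ERG* to *TMPRSS2* counts within a library, in which the library size cancels, was between 0.978 and 1.04 in control, between 1.28 and 1.30 with si025 and between 0.838 and 0.931 with si033. The 3 ranges did not overlap.

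Of the 10 ETS genes, 8 were called with si025, against 61.7% of all tested genes. *ERG*, *ETV6*, *ELF3* and *ELK3* were higher and *ETS2*, *GABPA*, *EHF* and *ELK1* lower. With si033, 7 were called, against 54.8% of all tested genes, and all 7 were lower (*ERG*, *ETS2*, *ELF2*, *ELF3*, *GABPA*, *EHF* and *ELK3*), where 27.8% of all tested genes were. Without si033 replicate 1 or without control replicate 3, 4 of the 10 were called lower with si033. Between si025 and si033, 7 were called, against 60.9%, with 6 higher with si025 (*ERG*, *ETS2*, *ETV6*, *ELF3*, *EHF* and *ELK3*) and *ELK1* lower. The median log2 fold change over the 10 was -0.09 with si025, -0.20 with si033 and 0.45 between them, beside medians over all tested genes of 0.02, 0.00 and -0.00. With si025, no member changed 2-fold, where 7.02% of all tested genes were called at that size, and with si033 only *ELK3* did, where 5.14% were. Between the siRNAs *ELF3* and *ELK3* differed at least 2-fold, where 7.70% of all tested genes did.

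The libraries themselves separated in a similar number of cases. All si025 libraries lay above the control range for 4 of the 10 members and below it for 4, where 35.0% and 30.7% of all tested genes did so (65.7% together). All si033 libraries lay above the control range for 0 members and below it for 7, where 29.3% and 30.2% of all tested genes did so (59.5% together). These 7 included *ELF1*, which was not called, and not *GABPA*, which was. Compared directly, si025 lay wholly above si033 for 6 members and wholly below it for 1, beside 32.2% and 30.4% of all tested genes (62.6% together). The plot of the 10 genes by library shows every value behind these counts. In it the si025 points of *ERG*, *ELF3*, *ELK3* and *ETV6* sit above the control points, and no gene has all its si033 points above them.

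**Figure D1:**
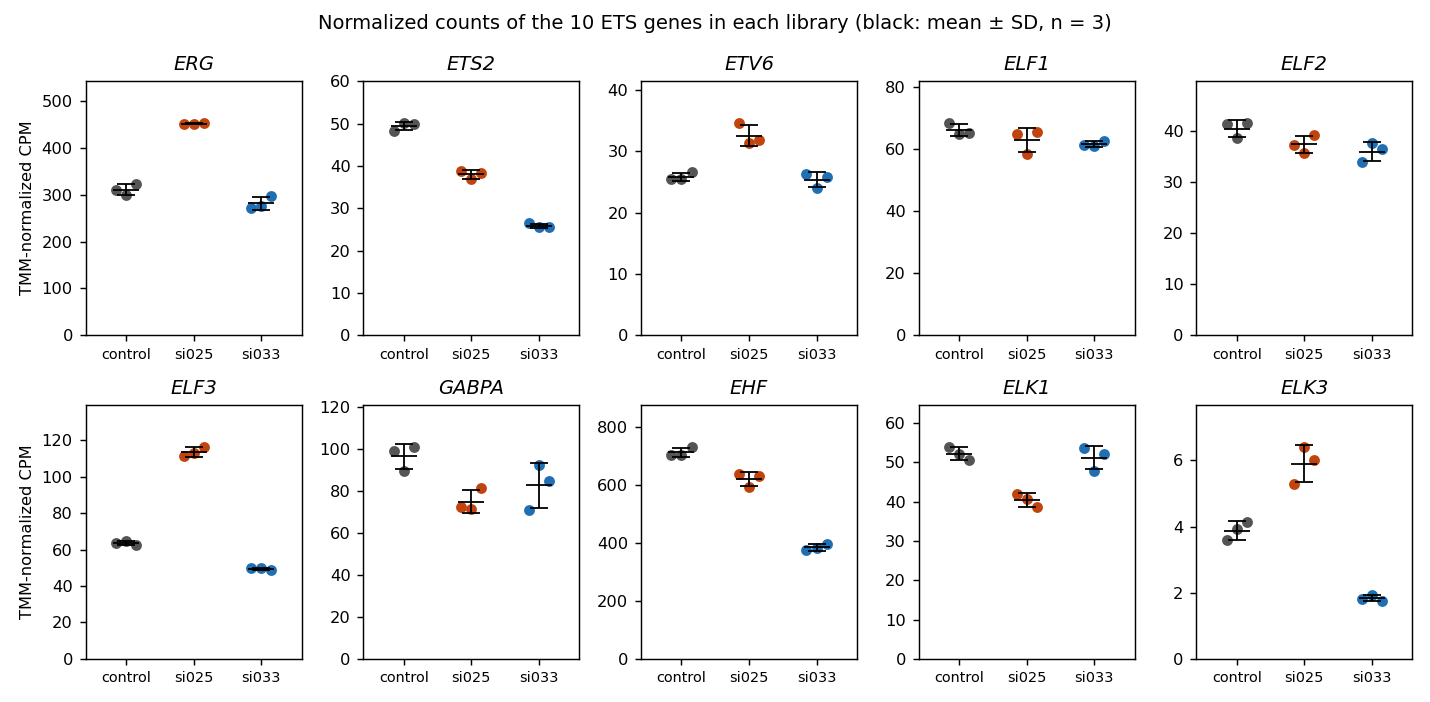
Each panel is a gene, with TMM-normalized CPM on the y axis starting at 0 and the 3 groups on the x axis. Coloured points are the libraries, and black marks and bars are the mean ± SD (n = 3). The si025 points of *ERG* sit at about 452 CPM, above every control point, and the si033 points of *EHF* lie between 373 and 396 CPM, below all others.

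The epithelial factors *EHF* and *ELF3* moved in opposite directions with si025 and fell together with si033. *EHF* (chromosome 11, 34621041 to 34663288, plus strand), a factor of differentiated glandular epithelium, was at 701, 702 and 729 CPM in the control libraries, 637, 592 and 630.1 CPM with si025 and 373, 383 and 396 CPM with si033. The 3 groups did not overlap, with control highest and si033 lowest. The log2 fold change was -0.20 (SE 0.04, adjusted *p* = 0.000211) with si025 and -0.89 (SE 0.04, adjusted *p* = 3.13e-14) with si033, and the direct comparison gave 0.69 (SE 0.04, adjusted *p* = 1.39e-12). *ELF3* (chromosome 1, 202010519 to 202017188, plus strand), an epithelial factor induced in inflammation, was at 63.5, 64.9 and 62.4 CPM in the control libraries, 111, 113 and 116 CPM with si025 and 49.7, 49.8 and 48.9 CPM with si033. Here si025 was highest and si033 lowest, again without overlap. *ELF3* rose with si025 by 0.84 (SE 0.05, adjusted *p* = 4.88e-13), fell with si033, -0.36 (SE 0.05, adjusted *p* = 2.33e-06), and was 2.30-fold higher with si025 than with si033, 1.20 (SE 0.05, adjusted *p* = 8.08e-16).

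*ETS2* (chromosome 21, 38805307 to 38824955, plus strand), a relative of *ETS1* whose product is activated by Ras and MAP kinase signalling, was at 48.4, 50.1 and 50.0 CPM in the control libraries, 38.8, 36.9 and 38.3 CPM with si025 and 26.5, 25.6 and 25.5 CPM with si033. Each si033 library was below each si025 library, which in turn was below each control library. The log2 fold change was -0.38 (SE 0.05, adjusted *p* = 1.52e-06) with si025 and -0.94 (SE 0.06, adjusted *p* = 2.52e-12) with si033, and the siRNAs differed by 0.56 (SE 0.06, adjusted *p* = 1.78e-08). *ETV6* (chromosome 12, 11649601 to 11895402, plus strand), a transcriptional repressor known from leukaemia fusions, was at 25.5, 25.4 and 26.6 CPM in the control libraries, 34.6, 31.4 and 31.8 CPM with si025 and 26.3, 24.0 and 25.8 CPM with si033. It rose with si025, 0.32 (SE 0.06, adjusted *p* = 0.000128), or 0.18 with offsets for gene length and GC content, and the comparison of si033 with control gave -0.03 (SE 0.07, adjusted *p* = 0.731) with a 95% confidence interval of -0.19 to 0.13. The direct comparison of the siRNAs was called, 0.35 (SE 0.06, adjusted *p* = 4.74e-05).

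The ternary complex factors *ELK1* and *ELK3* bind DNA together with serum response factor and answer to MAP kinases, *ELK1* as an activator and *ELK3* as a repressor that can be turned into an activator. *ELK3* (chromosome 12, 96194382 to 96269835, plus strand), the scarcest of the 10, was at 3.58, 3.91 and 4.13 CPM in the control libraries, 5.30, 6.40 and 6.01 CPM with si025 and 1.81, 1.93 and 1.76 CPM with si033. Its 3 groups did not overlap, and counts per library lay between 22 and 136. It rose with si025, 0.60 (SE 0.14, adjusted *p* = 0.000744), fell with si033, -1.11 (SE 0.17, adjusted *p* = 9.41e-06), and was 3.26-fold higher with si025 than with si033, 1.71 (SE 0.16, adjusted *p* = 3.17e-09). *ELK1* (chromosome X, 47635520 to 47650604, minus strand) was at 53.9, 52.1 and 50.7 CPM in the control libraries, 42.0, 40.5 and 38.5 CPM with si025 and 53.6, 47.9 and 52.1 CPM with si033. All 3 si025 libraries were below the others, while the si033 and control ranges overlapped. *ELK1* fell with si025, -0.37 (SE 0.06, adjusted *p* = 7.33e-06), and the si033 comparison gave -0.02 (SE 0.06, adjusted *p* = 0.764) with a 95% confidence interval of -0.16 to 0.12. Between the siRNAs it was lower with si025, -0.35 (SE 0.06, adjusted *p* = 1.64e-05).

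*GABPA* (chromosome 21, 25734947 to 25772460, plus strand), the DNA-binding subunit of GABP, a factor known for genes of the mitochondrion and of basic cell functions, was at 99.0, 89.5 and 101 CPM in the control libraries, 72.3, 71.3 and 81.4 CPM with si025 and 71.1, 92.3 and 84.6 CPM with si033. The si025 libraries were below all control libraries, and the si033 range overlapped both. The log2 fold change was -0.36 (SE 0.07, adjusted *p* = 0.000125) with si025 and -0.22 (SE 0.07, adjusted *p* = 0.0113) with si033. The si033 call was lost without si033 replicate 1 (-0.13, adjusted *p* = 0.0975), without control replicate 1 (-0.20, adjusted *p* = 0.0535) and without control replicate 3 (-0.18, adjusted *p* = 0.0856). The siRNAs differed by -0.14 (SE 0.07, adjusted *p* = 0.0948), which was not called, but the difference was called with offsets for gene length and GC content (-0.19, adjusted *p* = 0.000965), with no filter on low counts (-0.14, adjusted *p* = 0.031), without si025 replicate 3 (-0.21, adjusted *p* = 0.0289) and without si033 replicate 1 (-0.24, adjusted *p* = 0.00315).

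*ELF1* and *ELF2*, broadly expressed relatives of each other, were called least often. *ELF1* (chromosome 13, 40931919 to 41061414, minus strand) was at 68.2, 64.9 and 65.2 CPM in the control libraries, 64.8, 58.4 and 65.5 CPM with si025 and 61.2, 60.9 and 62.6 CPM with si033. It was called in none of the 3 comparisons, with log2 fold changes of -0.07 (SE 0.05, adjusted *p* = 0.267), -0.10 (SE 0.05, adjusted *p* = 0.139) and 0.03 (SE 0.05, adjusted *p* = 0.689) for si025, si033 and their difference. The 95% confidence intervals were -0.20 to 0.06, -0.23 to 0.04 and -0.11 to 0.16. All 3 si033 libraries of *ELF1* were nevertheless below the control range. *ELF2* (chromosome 4, 139057717 to 139177218, minus strand) was at 41.3, 38.6 and 41.5 CPM in the control libraries, 37.3, 35.8 and 39.1 CPM with si025 and 33.9, 37.7 and 36.4 CPM with si033. The log2 fold change of *ELF2* was -0.11 (SE 0.06, adjusted *p* = 0.102) with si025 and -0.17 (SE 0.06, adjusted *p* = 0.0223) with si033, and 0.05 (SE 0.06, adjusted *p* = 0.452) between the siRNAs. The si033 call of *ELF2* was lost under upper quartile scaling, in DESeq2 and when si033 replicate 1 (-0.13) or 3 (-0.18) was left out, or control replicate 1 (-0.15) or 3 (-0.14). *GABPA*, *ELK1* and *ELF2* have pseudogenes in the genome annotation, so read pairs shared with a copy make their levels less certain.

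The 18 other ETS genes show how far these patterns extend in the family. The files held all of them, and 9 had enough counts to test. With si025, 5 of the 9 were called, against 61.7% of all tested genes (*ETS1*, *FEV*, *ELF5* and *SPDEF* higher, *ELK4* lower), with si033 5, against 54.8% (*ELF4* and *ELF5* higher, *ERF*, *ELK4* and *SPDEF* lower), and between the siRNAs 4, against 60.9% (*SPDEF* and *FEV* higher with si025, *ELF4* and *ELF5* lower). *SPDEF*, the prostate-derived ETS factor of secretory epithelium, was at 110.3, 119 and 106 CPM in the control libraries, 256, 265 and 247 CPM with si025 and 55.8, 60.4 and 63.4 CPM with si033. It rose with si025, 1.20 (SE 0.05, adjusted *p* = 5.84e-15), and fell with si033, -0.89 (SE 0.06, adjusted *p* = 6.77e-12), and at 2.09 (SE 0.05, adjusted *p* = 4.69e-19) it had the largest difference between the siRNAs of the 19 ETS genes tested. *ELK4*, the third ternary complex factor, was at 136, 133 and 142 CPM in the control libraries, 92.5, 81.4 and 84.8 CPM with si025 and 86.2, 91.6 and 90.5 CPM with si033. It fell with both siRNAs, -0.68 (SE 0.05, adjusted *p* = 9.48e-11) and -0.62 (SE 0.05, adjusted *p* = 6.95e-10), and the siRNAs differed by -0.06 (SE 0.05, adjusted *p* = 0.346), with a 95% confidence interval of -0.19 to 0.07. This difference was called with offsets for gene length and GC content (-0.11).

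The remaining tested ETS genes were scarcer or moved less. *ELF4* averaged 1.94 CPM in control, 1.82 CPM with si025 and 4.85 CPM with si033, and it rose with si033, 1.37 (SE 0.19, adjusted *p* = 1.97e-06). *ELF5*, a factor of secretory epithelium in the breast, averaged 5.82, 7.60 and 14.4 CPM and rose with si025, 0.33 (SE 0.14, adjusted *p* = 0.0388), and with si033, 1.24 (SE 0.13, adjusted *p* = 1.89e-08). *ETS1*, the closest relative of *ETS2*, stood at 1.47 CPM in control and rose with si025, 0.71 (SE 0.21, adjusted *p* = 0.00443). *FEV*, a close relative of *ERG*, stood at 1.33 CPM and rose with si025, 0.68 (SE 0.21, adjusted *p* = 0.00816). *ERF*, a repressor at 43.3 CPM in control, fell with si033, -0.15 (SE 0.06, adjusted *p* = 0.0362). *ETV3* gave -0.04 and -0.12, and *ETV2* -0.41 and 0.24, none of them called. With the offsets *ETV3* was called in both comparisons (-0.13 and -0.13), and with a library left out the si025 value of *ETV2* ran from -0.65 to -0.13 and its si033 value from 0.014 to 0.53. Some of these calls were less stable, and not only those of the scarcest genes. The si033 call of *ELF4* held in all 16 alternatives. Of 16 alternative analyses, 1 lost the si025 call of *ETS1* (DESeq2), 2 that of *FEV* (DESeq2 and without si025 replicate 2, 0.54) and 6 that of *ELF5*, among them the omission of si025 replicate 1 (0.33), si025 replicate 3 (0.22), control replicate 1 (0.27) or control replicate 2 (0.23), while without control replicate 3 it was 0.57. For *ERF* with si033, 5 lost the call, among them the omission of si033 replicate 3 (-0.10), control replicate 1 (-0.11) or control replicate 2 (-0.15). The 9 untested genes included every member of the *ETV1*, *ETV4* and *ETV5* subfamily, which take the place of *ERG* in some prostate cancer fusions, with at most 5, 7 and 5 counts in a library. *FLI1*, the nearest relative of *ERG*, had at most 1 count. *SPI1*, *SPIC* and *ETV3L* had at most 1, 1 and 0 counts, *SPIB* 12 and *ETV7* 17. The plot of log2 fold changes sets the 19 tested genes side by side. Its points for *SPDEF*, *ELK3*, *ELF3* and *ERG* lie on opposite sides of 0 for si025 and si033.

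**Figure D2:**
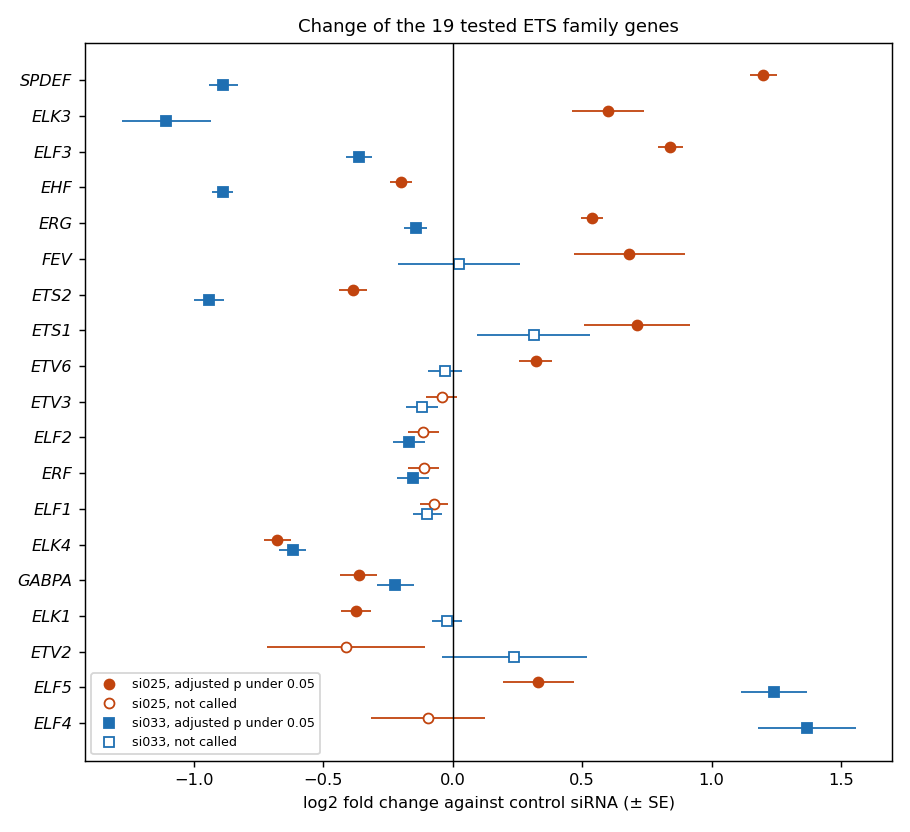
The x axis is the log2 fold change against control siRNA, with bars of ± SE, and the y axis lists the 19 tested ETS genes, ordered by the difference between si025 and si033. Circles are si025 and squares si033, filled where the adjusted *p* was under 0.05 and open where it was not. *SPDEF* stands at the top, at 1.20 and -0.89, and *ELF4* at the bottom, at -0.09 and 1.37.

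Levels of different genes were compared as CPM per kilobase of annotated exon. This length merges the exons of all annotated transcripts of a gene, whether expressed here or not. The order of genes and the shares of the family sum depend on it. In control cells *EHF* was the most abundant ETS mRNA per length, at 116 ± 2.59 (SD, n = 3). *ERG* at 36.3 ± 1.33 and *SPDEF* at 35.8 ± 2.05 came next and overlapped in range. *ELF3* (18.8 ± 0.364), *ELK1* (17.9 ± 0.545) and *GABPA* (17.5 ± 1.11) formed the next step, in which neighbours overlapped, as did *ERF* (13.7 ± 0.625) and *ELF1* (12.8 ± 0.355) below them. *ELK4* (9.92 ± 0.347) and *ELF2* (9.62 ± 0.389) overlapped too. *ETS2* followed at 6.69 ± 0.131, then *ETV3* at 5.49 ± 0.310 and *ETV6* at 2.67 ± 0.0684, which overlapped *ELF5* at 2.26 ± 0.473. *ELK3* was at 0.878 ± 0.0632, and the genes below it were at 0.708 ± 0.0498 or less.

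This order changed with each siRNA. With si025 it began with *EHF* (101 ± 3.89), *SPDEF* (82.1 ± 2.93), *ERG* (52.7 ± 0.0380) and *ELF3* (33.5 ± 0.760), with no overlap between neighbours, followed by *ELK1* at 13.8 ± 0.596. With si033 it was *EHF* (62.5 ± 1.83), *ERG* (32.8 ± 1.64), *SPDEF* (19.2 ± 1.23), *ELK1* (17.5 ± 1.01), *GABPA* (15.01 ± 1.95) and *ELF3* (14.6 ± 0.141), and the ranges from *SPDEF* to *ELF3* overlapped from neighbour to neighbour. Summed over the 28 ETS genes, the level per kilobase was 308 ± 3.04 in control, 357 ± 3.45 with si025 and 221 ± 4.95 with si033. The 10 members alone summed to 239 ± 4.43, 245 ± 5.73 and 169 ± 4.56. *ERG* made up 11.8% of the family sum in control, 14.8% with si025 and 14.9% with si033, and *EHF* made up 37.5%, 28.2% and 28.3%. *SPDEF* made up 11.6%, 23.0% and 8.68%, and *ELF3* 6.10%, 9.40% and 6.61%. The plot of levels per length shows this order on a log scale, with *EHF* at the top of each group and *ELK3* well below the other 9 members.

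**Figure D3:**
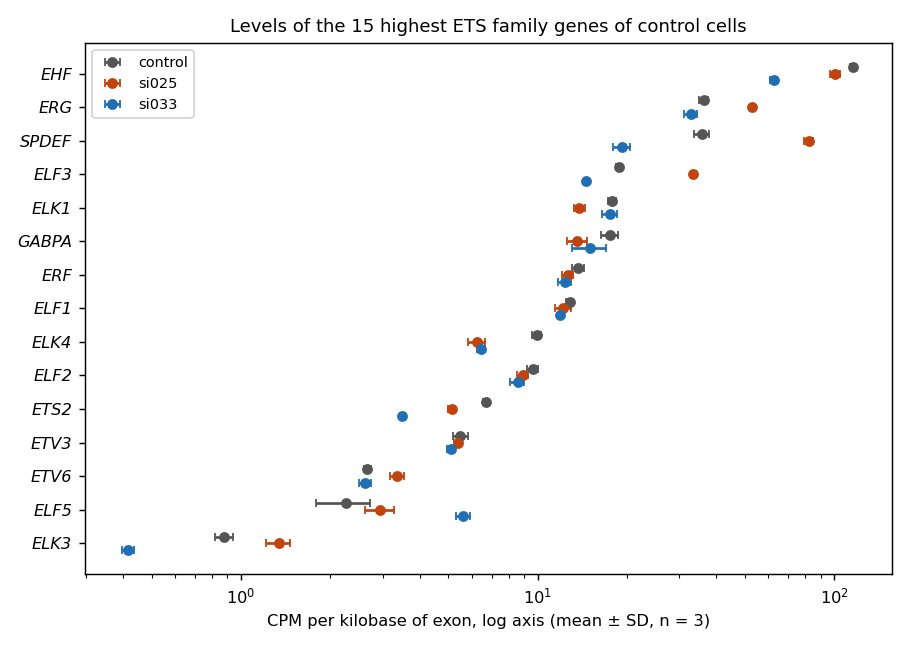
The x axis is CPM per kilobase of exon on a log scale, as mean ± SD over 3 libraries, and the y axis lists the 15 ETS genes highest in control cells. Colours are the groups. *EHF* is at the top, at 116, 101 and 62.5 in control, si025 and si033.

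*ERG*, *ETS2* and *TMPRSS2* lie on the same arm of chromosome 21. The fusion joins *TMPRSS2* to *ERG* across an interval that holds 17 genes in the files, *ETS2* among them, and 13 of these were tested. With si025, 9 of the 13 were called, 6 higher and 3 lower, against 61.7% of all tested genes, and the median log2 fold change was 0.16. With si033, 8 were called, 2 higher and 6 lower, against 54.8%, with a median of -0.21. Directly compared, 7 were higher with si025 and 2 lower, where 31.2% and 29.7% of all tested genes were (60.9% together). The median was 0.56, beside -0.00 over all tested genes. Of the 13, 5 were called with a difference of at least 2-fold, where 7.70% of all tested genes were. The shares called in either direction are near those of all genes, unlike the share at least 2-fold apart between the siRNAs. The genes did not move as a block. *B3GALT5*, a glycosyltransferase gene, rose with both siRNAs, 0.40 (SE 0.11, adjusted *p* = 0.00391) and 1.89 (SE 0.10, adjusted *p* = 3.57e-13), whereas *PSMG1*, a proteasome assembly factor, and *HMGN1*, a nucleosome-binding protein, fell with both, by log2 fold changes of -0.34 and -0.47 for *PSMG1* and of -0.26 and -0.27 for *HMGN1*. *PCP4*, a calmodulin-binding protein, had the highest si025 value of the interval, 1.31 (SE 0.17, adjusted *p* = 6.42e-07), and the only si025 change of at least 2-fold, and gave 0.25 (SE 0.19, adjusted *p* = 0.292) with si033. *WRB*, which takes part in inserting tail-anchored proteins, fell with si033, -0.78 (SE 0.11, adjusted *p* = 1.46e-06), and gave 0.16 (SE 0.10, adjusted *p* = 0.146) with si025, called with offsets for gene length and GC content (0.24). *DSCAM*, *BACE2* and *FAM3B* rose with si025 (0.94, 0.82 and 0.77) and had si033 values of -0.41 (SE 0.18, adjusted *p* = 0.0614), -0.19 (SE 0.06, adjusted *p* = 0.00666) and -0.47 (SE 0.08, adjusted *p* = 4.95e-05). The si033 value of *DSCAM* was called with the offsets (-0.48) and without si033 replicate 2 (-0.49) or control replicate 2 (-0.49), and ran from -0.49 to -0.24 with a library left out. The si025 call of *B3GALT5* was lost in DESeq2 (0.38) and without control replicate 3 (0.31), and that of *IGSF5*, 0.43 (SE 0.13, adjusted *p* = 0.00716), without si025 replicate 2 (0.31). The plot of the interval lists these genes in chromosome order. In it *ETS2*, *PSMG1* and *HMGN1*, on the *ERG* side, lie to the left of 0 with both siRNAs. *BRWD1*, between *PSMG1* and *HMGN1*, lies to the right, at 0.03 with si025 (not called) and 0.22 with si033 (called). The si025 values from *B3GALT5* to *FAM3B*, on the *TMPRSS2* side, lie to the right. Counts of *WRB* are less certain, because a readthrough gene overlaps it.

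**Figure D4:**
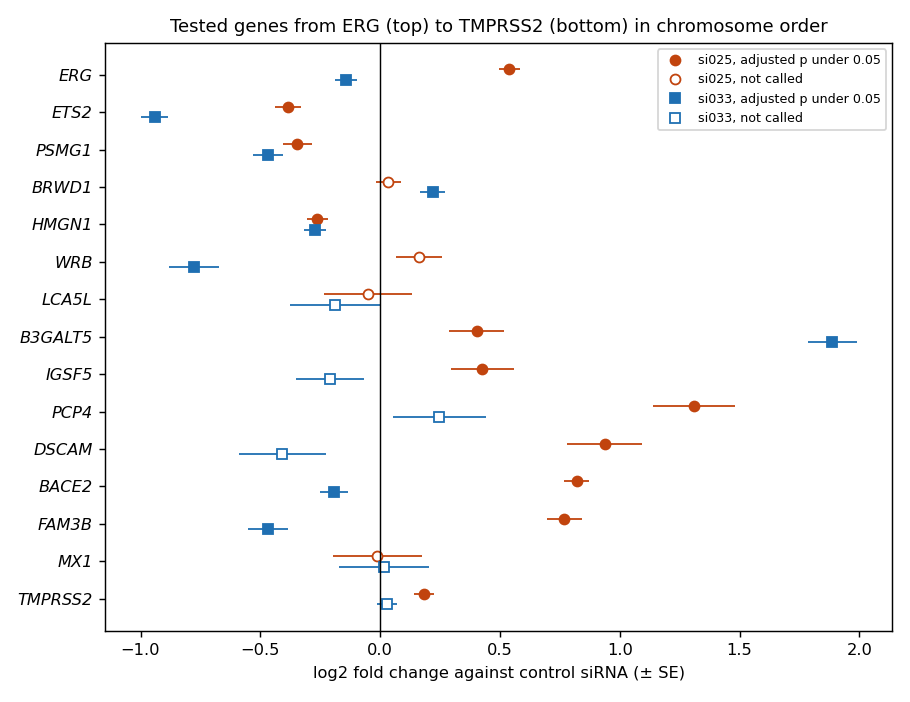
The x axis is the log2 fold change against control siRNA with bars of ± SE, and the y axis lists the tested genes from *ERG* to *TMPRSS2* in chromosome order, not to scale. Circles are si025 and squares si033, filled where the adjusted *p* was under 0.05. *B3GALT5* lies farthest to the right, at 1.89 with si033, and *ETS2* farthest to the left, at -0.94.

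Genes known to be high in, or raised by, *ERG* in prostate cancer were listed (14 genes), and 11 had enough counts to test. With si025, 8 of the 11 were called, 4 higher and 4 lower, with a median log2 fold change of -0.04, whereas with si033 all 11 were called, 10 of them lower, with a median of -0.72. Beside this stand 61.7% of all tested genes called with si025 (32.9% higher and 28.8% lower) and 54.8% with si033 (26.9% and 27.8%). The medians over all tested genes were 0.02 and 0.00. Directly compared, 8 of 11 were higher with si025 and 2 lower, where 31.2% and 29.7% of all tested genes were (60.9% together). The median was 1.003, beside -0.00 over all tested genes. Of the 11, 7 differed at least 2-fold, where 7.70% of all tested genes were called at that size. *FZD4*, a Wnt receptor, was at 175, 182 and 169.6 CPM in the control libraries, 179, 158 and 175 CPM with si025 and 40.5, 43.2 and 40.7 CPM with si033. It fell with si033, -2.08 (SE 0.06, adjusted *p* = 2.11e-18), and gave -0.04 (SE 0.05, adjusted *p* = 0.494) with si025, which was called with offsets for gene length and GC content (-0.16). *PLA1A*, a phospholipase gene, averaged 266, 351 and 168 CPM, and it rose with si025, 0.40 (SE 0.05, adjusted *p* = 7.90e-08), and fell with si033, -0.66 (SE 0.05, adjusted *p* = 4.34e-11).

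*ERG* itself rose with si025, but of the 11 listed genes 4 were called higher with it, 4 lower and 3 were not called. *ADAMTS1*, a secreted protease, averaged 123, 52.9 and 74.8 CPM and fell with both siRNAs, -1.22 (SE 0.05, adjusted *p* = 5.87e-15) and -0.72 (SE 0.05, adjusted *p* = 5.24e-11). *LEF1*, a transcription factor of the Wnt pathway, fell with si025, -0.36 (SE 0.05, adjusted *p* = 5.03e-07), and was the only gene of the 11 to rise with si033, 0.65 (SE 0.04, adjusted *p* = 2.49e-11). With si033, the fall of *ERG*, -0.14, was smaller than the median of the list, -0.72. The plot of these genes shows si033 values from -2.08 to 0.65, against si025 values from -1.22 to 0.40. *PLAU*, *CXCR4* and *HLA-DMB* were too low to test.

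**Figure D5:**
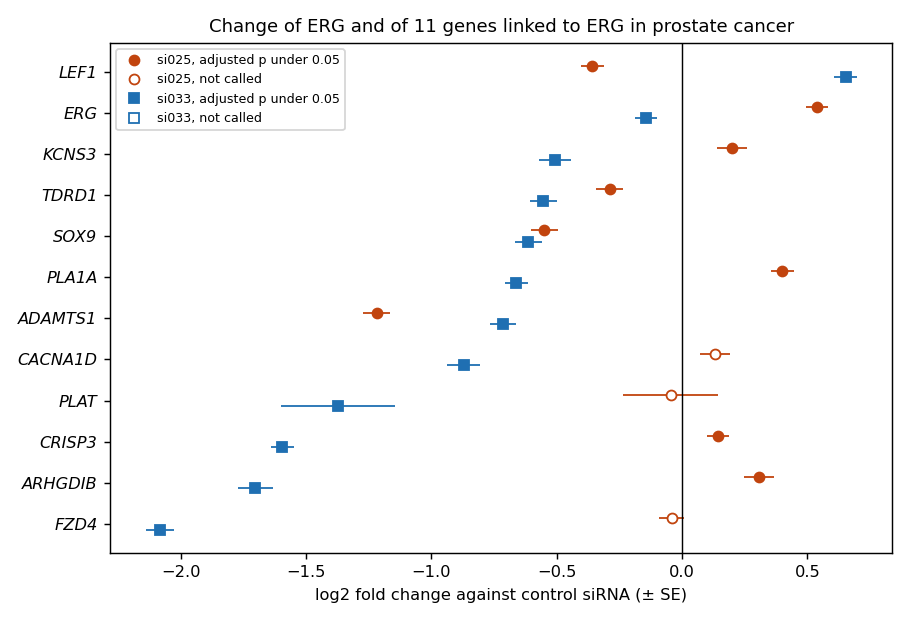
The x axis is the log2 fold change against control siRNA with bars of ± SE, and the y axis lists *ERG* and the 11 tested genes, ordered by their si033 value. Circles are si025 and squares si033, filled where the adjusted *p* was under 0.05. The si033 squares of 10 of the 11 listed genes are to the left of 0, and that of *LEF1* is at 0.65.

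Proteins that bind ETS factors or govern their stability were listed as 11 genes, all tested. With si025, 6 were called, 1 higher and 5 lower, with a median of -0.11. The si033 comparison called 10 of them, 9 lower and *DET1* higher, with a median of -0.24, beside 61.7% and 54.8% of all tested genes. *SRF*, the DNA-binding partner of *ELK1*, *ELK3* and *ELK4*, was at 53.0, 52.3 and 46.5 CPM in the control libraries, 27.5, 28.3 and 24.7 CPM with si025 and 45.3, 37.8 and 44.0 CPM with si033. It fell with both siRNAs, -0.91 (SE 0.07, adjusted *p* = 2.67e-10) and -0.24 (SE 0.07, adjusted *p* = 0.00616). *SPOP*, the substrate adaptor of the ubiquitin ligase known to target ERG, rose slightly with si025, 0.12 (SE 0.05, adjusted *p* = 0.033), and fell with si033, -0.49 (SE 0.05, adjusted *p* = 2.95e-08). The si025 call of *SPOP* was lost in 8 of 16 alternatives, including without si025 replicate 2 or 3 and without control replicate 1 or 3, with values from 0.08 to 0.14. *RFWD2*, the older symbol of *COP1*, and *DET1* belong to a ubiquitin ligase for ETS proteins. With si033 *RFWD2* fell, -0.68 (SE 0.06, adjusted *p* = 6.47e-10), and *DET1* rose, 0.43 (SE 0.10, adjusted *p* = 0.000642), while with si025 they gave 0.09 (SE 0.05, adjusted *p* = 0.15) and -0.14 (SE 0.10, adjusted *p* = 0.228). The si025 value of *DET1* was called without control replicate 2 (-0.25) and ran from -0.25 to -0.04 with a library left out.

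Of the 10 immediate early genes that SRF and ELK factors are known for, 8 were tested. With si025, 4 were called (3 higher and 1 lower, median -0.09), against 61.7% of all tested genes, with si033 2 (both lower, median -0.21), against 54.8%, and between the siRNAs 3, all higher with si025, against 60.9%. The si025 lower count was 4 with offsets for gene length and GC content and 2 without si025 replicate 2. *DUSP1*, a MAP kinase phosphatase, rose with si025, 0.56 (SE 0.10, adjusted *p* = 3.25e-05), and fell with si033, -0.61 (SE 0.11, adjusted *p* = 6.32e-05), while *ATF3*, a stress-response transcription factor, fell with both, -0.73 (SE 0.15, adjusted *p* = 0.000182) and -0.83 (SE 0.15, adjusted *p* = 6.98e-05). Of 10 genes with known GABP sites, all tested, 6 were called with si025, each lower, with a median of -0.19, and 3 with si033, each lower, with a median of -0.05. Beside these stand 61.7% and 54.8% of all tested genes called, and 28.8% and 27.8% called lower. *SKP2*, a subunit of a ubiquitin ligase of the cell cycle, was at 97.9, 97.0 and 101 CPM in the control libraries, 47.8, 45.3 and 48.0 CPM with si025 and 77.2, 84.0 and 79.8 CPM with si033. It fell with si025, -1.07 (SE 0.05, adjusted *p* = 3.95e-14), and less with si033, -0.30 (SE 0.05, adjusted *p* = 1.89e-05), and the siRNAs differed by -0.77 (SE 0.05, adjusted *p* = 1.04e-11). *TFAM*, which packages and transcribes mitochondrial DNA, fell with both, -0.35 (SE 0.05, adjusted *p* = 3.08e-06) and -0.38 (SE 0.05, adjusted *p* = 1.87e-06). *NRF1*, a regulator of mitochondrial genes, gave -0.32 (SE 0.07, adjusted *p* = 0.000337) and -0.20 (SE 0.07, adjusted *p* = 0.0174), and *COX5B*, a subunit of cytochrome oxidase, -0.17 (SE 0.06, adjusted *p* = 0.0133) and -0.01 (SE 0.06, adjusted *p* = 0.926). The si033 call of *NRF1* was lost without si033 replicate 2 or 3 and without control replicate 1 or 2 (-0.15 to -0.19), and the si025 call of *COX5B* without si025 replicate 1 (-0.13), without control replicate 2 (-0.13) and with offsets for gene length and GC content (-0.05).

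*KLK3*, which encodes PSA, is an androgen-regulated gene of the same cells as *TMPRSS2*. It averaged 13.4 CPM in control, 38.9 CPM with si025 and 19.3 CPM with si033, and it rose with both siRNAs, 1.51 (SE 0.08, adjusted *p* = 2.10e-13) and 0.51 (SE 0.09, adjusted *p* = 3.76e-05). *KLK3* is named as the largest rise among the androgen-related genes listed, with each siRNA, and does not stand for the others. With si033 *TMPRSS2* was not called (0.03), and *KLK2* averaged less than in control.

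Finally, the tested genes outside the 10 whose pair of log2 fold changes (si025 and si033 against control) lay nearest to that of *ERG*, by straight-line distance on the log2 scale over the 3 groups, were *LMTK3* (distance 0.014), *OSBPL5* (0.0167), *BEX4* (0.0208), *AFAP1L1* (0.0218) and *SLC29A3* (0.0307). In the si025 comparison their log2 fold changes lay between 0.52 and 0.56, and in the si033 comparison between -0.17 and -0.13. The si025 call of *AFAP1L1* was lost in 6 of 16 alternatives, 4 of which left out a library (si025 replicate 1, 2 or 3, or control replicate 2), and that of *SLC29A3* without control replicate 3 (0.35). With a library left out, the si033 values ran from -0.23 to -0.013 for *LMTK3*, from -0.23 to -0.018 for *BEX4*, from -0.32 to -0.085 for *SLC29A3* and from -0.43 to 0.055 for *AFAP1L1*, and with offsets for gene length and GC content *OSBPL5* was at 0.26 with si025 and -0.25 with si033, the latter called. These distances rest on the group means of 9 libraries and 12810 genes were compared. The SE of the si025 value of *LMTK3* was 0.13, larger than each of these distances, so the order of the genes is not resolved.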

How the data were processed

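RNA sequencing covered 9 VCaP libraries, 3 per group, with groups taken from the sample titles. The methods of the study name HISAT2 and GRCh38 for the alignment of these reads, and the submitters' processing notes give HISAT2 2.1.0 and hg38. Per the file headers, the authors made the deposited counts with featureCounts 1.5.2, as raw numbers of read pairs over the exons of each gene symbol, counted with the reverse-strand setting and not normalized. The headers name a RefSeq annotation and the methods GENCODE. Read pairs that map to several places are left out by the defaults of that program.

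Counts were tested with edgeR 4.0.16 in R 4.3.3 by the quasi-likelihood test, with TMM scaling and the default expression filter, on all 9 libraries in 1 fit of 3 group means with 6 residual degrees of freedom. The SE was taken as the absolute log2 fold change over the square root of *F*, and 95% confidence intervals used 6 degrees of freedom. The fit was also run on simulated counts in which few genes changed, only with si025, and all genes had the same spread. Most genes were called in the real libraries, so the simulation says little about them. Libraries of a group differed by more than counting noise (chi-square per degree of freedom from 1.68 to 5.05), so none was merged. The highest values were those of si025 replicate 2 with replicate 1 (5.05) and with replicate 3 (4.38), beside 2.25 between replicates 1 and 3. Control pairs lay between 1.68 and 2.45. Alternatives were other scalings, no filter, DESeq2 1.42.0, only the 2 groups compared, a replicate block, offsets for gene length and GC content as splines with 5 degrees of freedom, and each library left out.

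The members and lists were chosen with earlier results of these data known. Named were all members, every other ETS gene with at least 1 count, the extreme called genes of each other list, *TMPRSS2*, genes of the chromosome 21 interval and the 5 genes nearest to *ERG*. *IGF1R-AS1*, *PVT1*, *CCAT1* and protein sequences were not analysed here. Some genes and lists that this rule covers are not reported here.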

Additional observations from a re-analysis of the deposited data

Results flagged for a closer look

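The direct comparison of si025 with si033 tests whether the effects of the siRNAs against the shared control differ, and 11 of the 19 tested ETS genes and *TMPRSS2* passed it (edgeR's quasi-likelihood test, adjusted *p* under 0.05). The log2 difference, si025 over si033, was 2.09 for *SPDEF*, 1.71 for *ELK3*, 1.20 for *ELF3*, 0.69 for *EHF*, 0.68 for *ERG*, 0.66 for *FEV*, 0.56 for *ETS2*, 0.35 for *ETV6* and 0.15 for *TMPRSS2*. It was -1.46 for *ELF4*, -0.91 for *ELF5* and -0.35 for *ELK1*. *SPDEF*, *ELK3*, *ELF3* and *ERG* were called higher with si025 and lower with si033 against control, so their effects had opposite signs. With 60.9% of all tested genes called in the same comparison, a difference between the siRNAs was common in these libraries. Groups of 3 libraries were too small to test for outlying libraries.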

How the results depend on the processing

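The *ERG* rise with si025 was called in all 16 alternatives, with log2 fold changes from 0.43 to 0.56. Under upper quartile scaling the si033 values of *ETV6* and *ELK1* turned to 0.000475 and 0.00703, that of *COX5B* to 0.0218 and that of *ELF2* lost its call at -0.14, as it did in DESeq2 at -0.17. With offsets for gene length and GC content, *ELF2* was called with si025 (-0.15), *GABPA* between the siRNAs (-0.19, and -0.14 with no filter), and uncalled values changed sign for *BRWD1* with si025 (-0.040), for *FEV* (-0.025) and *TMPRSS2* (-0.013) with si033, and between the siRNAs for *ELF1* (-0.00177), *ERF* (-0.078), *HMGN1* (-0.034, and -0.00038 in DESeq2) and *TFAM* (-0.017). The offsets moved 8815 genes in place of 7908 past the threshold with si025. Under DESeq2, 2 of the other ETS genes were called with si025 (1 higher), and 1 was higher between the siRNAs. With si025, 2 of them were lower with no filter and 3 with the offsets, and between the siRNAs 4 were lower with the offsets. The 1 endothelial marker called (*VWF*) was called in 0 cases by DESeq2 or with the offsets. The offsets also gave 5 GABP target genes called with si033, 5 SRF and ELK response genes between the siRNAs, and 2 members lower between the siRNAs, as did no filter, which called 1 immune marker with si033.

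Leaving out each library in turn gave the following ranges. For si033 against control, log2 fold changes ran from -0.19 to -0.11 for *ERG*, -0.20 to -0.13 for *ELF2*, -0.30 to -0.13 for *GABPA*, -0.047 to 0.0033 for *ETV6*, -0.042 to 0.018 for *ELK1*, -0.015 to 0.078 for *FEV*, -0.43 to 0.055 for *AFAP1L1*, -0.41 to 0.023 for *COL1A1*, -0.033 to 0.042 for *COX5B* and -0.0047 to 0.28 for *VWF*. For si025 they ran from -0.014 to 0.076 for *BRWD1*, -0.28 to 0.077 for *ELF4* and -0.073 to 0.013 for *FZD4*, and between the siRNAs from -0.0077 to 0.081 for *ELF1*, -0.011 to 0.074 for *ERF*, -0.24 to -0.069 for *GABPA*, -0.021 to 0.055 for *HMGN1* and -0.020 to 0.082 for *TFAM*. Members called with si033, all lower, ran from 4 to 7, and members lower between the siRNAs from 1 to 2 (2 without si025 replicate 3 or si033 replicate 1). Other ETS genes lower with si025 ran from 1 to 2 (2 without si033 replicate 2), those higher between the siRNAs from 1 to 2 (1 without si025 replicate 2), and endothelial markers called from 0 to 1 in either comparison.

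Same-numbered libraries of different groups did not deviate together. Over 12810 genes the correlations of their deviations ran from -0.0214 to 0.0729, and 3 of 9 libraries correlated best with their own number. With a replicate block, 8000 genes were called with si025, 7094 with si033 and 7843 between the siRNAs, in place of 7908, 7015 and 7801, and the *ERG* values were 0.54, -0.14 and 0.68. The block changed no call of a member. *ELK3*, *FEV*, *ETS1*, *ETV2* and *ELF4* rest on few counts, so small changes in them were not detectable at this depth.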

Other observations

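Promoters holding the ETS word CCGGAAGT or its reverse complement were also set beside those without it, as a description. Of the tested genes, 9948 matched a RefSeq promoter by symbol, and 960 of these (9.65%) held the word. With si025, 233 of the 960 genes were called higher and 335 lower, with a median log2 fold change of -0.06, whereas of the 8988 genes without the word 3030 were higher and 2589 lower, with a median of 0.02. With si033 the medians were -0.01 and 0.00, and between the siRNAs -0.06 and 0.01. With offsets for gene length and GC content the si025 medians were -0.12 and -0.05. The median GC content of the exons was 47.9% and 48.5%. No test was run on this difference, and many factors other than the 10 members bind the same word.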
